A study of Homo sapiens with 6 samples.

Results

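The 39 protein-coding HOX genes of the HOXA, HOXB, HOXC and HOXD clusters were described in OE33 cells, an established line from a human adenocarcinoma of the esophagus, with and without an acute exposure to acidified bile salts (ABS). They were taken from the 58735 genes of the count table by biotype and by name (HOX, a cluster letter from A to D and a number). HOXA held 11 members, HOXB 10, HOXC 9 and HOXD 9. Polyadenylated RNA was sequenced in bulk from 3 libraries of untreated cells (control) and 3 libraries of ABS cells, described as independent biological replicates. ABS cells spent 20 min in unsupplemented medium at pH 4.0 with 200 µM bile salts, were washed, and were harvested after 6 h in full medium. Both groups are 1 unmodified line and so stand for 1 tumour. Acid alone and bile salts alone are not among the groups, and the labels do not say whether control cells were also moved to unsupplemented medium.

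HOX genes encode homeodomain transcription factors that give cells along the head-to-tail axis of the embryo their positional identity. Genes of low number, at the 3′ end of a cluster, are switched on earlier and further forward than genes of high number, and genes of the same number in different clusters are paralogs. Polycomb complexes hold silent HOX genes off, MLL complexes keep active ones on, and retinoic acid is a classical inducer of the 3′ genes. Adult epithelia and the tumours derived from them keep part of the embryonic pattern.

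Library totals lay between 22145676 and 25235686 counts. Levels are given as CPM, that is counts scaled to a library of 1000000 after trimmed-mean (TMM) normalisation, and levels of different genes are compared only as CPM per kilobase of exon. Where a library had 0 counts of a gene, up to 3 counts remain possible, which is 0.119 to 0.135 CPM before TMM scaling and covers counting error only. The cell type label was checked against markers. All 8 epithelial markers were expressed, and their sum lay between 18700 and 21447 CPM in control and between 19499 and 20847 CPM after ABS. *KRT19* and *KRT8* made up most of this sum, so it does not show changes in single markers. Of 8 fibroblast markers, *COL1A2*, *DCN* and *THY1* were at 0 in every library, and the list summed to 2.82 to 3.14 CPM in control and 2.67 to 4.11 after ABS, nearly all of it *COL1A1*. Of 8 immune markers 5 were at 0, *PTPRC* among them, with sums of 5.58 to 7.24 and 5.77 to 6.45 CPM. Nearly all of this was *CD14* and *LYZ*, which were detected in every library. *CD14* lay at 4.55 to 6.01 CPM in control and 4.55 to 5.24 after ABS, and *LYZ* at 0.827 to 1.23 and 0.874 to 1.81. The 6 endothelial markers summed to at most 0.0455 CPM in control and 0.275 after ABS. Replicate 3 differed from replicates 1 and 2 in both groups. On the second principal component, with 25.9% of the variance, its libraries lay at -19.0 (control) and -29.0 (ABS), and the other 4 lay between 2.73 and 18.5. A chi-square over genes, per degree of freedom, gave 6.74 between control replicate 3 and ABS replicate 3, 4.77 between replicates 1 and 2 of either group, and 13.6 to 18.9 in every other pair of libraries, so the replicate 3 libraries were closer to each other than to the rest of their own groups. The labels name no batch, and values within replicates 1 and 2 and within replicate 3 are given after the genes.

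Upstream regions of 6 HOX genes are shown because expression in OE33 cells sets these genes apart: *HOXA2*, *HOXA11* and *HOXA13* were expressed, and *HOXA4*, *HOXD11* and *HOXD13* were at or near 0. Each is the 250 bases before a RefSeq start site on GRCh38.p14, written 5′ to 3′ on the strand of the gene. Capitals mark 3 promoter motifs on either strand. The first is the CCAAT box. The second is the GC box, searched as GGGCGG. The third is the TATA box, searched as TATAAA. Motifs that touch or overlap run together in capitals.
HOXA2, chr7:27102684-27102933, minus strand: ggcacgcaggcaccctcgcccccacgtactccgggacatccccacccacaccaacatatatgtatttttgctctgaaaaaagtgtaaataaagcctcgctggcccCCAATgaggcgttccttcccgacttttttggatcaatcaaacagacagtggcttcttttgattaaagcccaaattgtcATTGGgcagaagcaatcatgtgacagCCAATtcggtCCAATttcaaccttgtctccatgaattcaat
HOXA4, chr7:27130758-27131007, minus strand: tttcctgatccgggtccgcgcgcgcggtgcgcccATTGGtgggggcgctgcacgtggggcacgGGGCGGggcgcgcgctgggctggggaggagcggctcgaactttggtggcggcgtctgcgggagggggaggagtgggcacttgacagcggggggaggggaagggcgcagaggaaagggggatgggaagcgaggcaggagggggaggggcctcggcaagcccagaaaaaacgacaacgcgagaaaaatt
HOXA11, chr7:27185233-27185482, minus strand: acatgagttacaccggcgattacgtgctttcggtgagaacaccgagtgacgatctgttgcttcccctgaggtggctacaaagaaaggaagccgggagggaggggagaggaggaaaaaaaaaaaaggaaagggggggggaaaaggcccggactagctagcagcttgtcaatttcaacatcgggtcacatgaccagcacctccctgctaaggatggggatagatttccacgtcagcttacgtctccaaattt
HOXD11, chr2:176107030-176107279, plus strand: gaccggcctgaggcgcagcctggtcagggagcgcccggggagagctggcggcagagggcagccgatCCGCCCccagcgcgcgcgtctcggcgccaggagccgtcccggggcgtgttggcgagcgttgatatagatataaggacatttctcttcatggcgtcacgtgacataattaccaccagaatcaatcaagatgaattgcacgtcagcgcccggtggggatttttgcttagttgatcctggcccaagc
HOXA13, chr7:27200092-27200341, minus strand: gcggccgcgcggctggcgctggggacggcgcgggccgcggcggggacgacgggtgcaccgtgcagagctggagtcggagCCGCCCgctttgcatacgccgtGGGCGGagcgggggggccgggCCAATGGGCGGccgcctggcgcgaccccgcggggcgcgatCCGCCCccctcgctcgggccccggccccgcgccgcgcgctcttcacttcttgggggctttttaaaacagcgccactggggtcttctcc
HOXD13, chr2:176092471-176092720, plus strand: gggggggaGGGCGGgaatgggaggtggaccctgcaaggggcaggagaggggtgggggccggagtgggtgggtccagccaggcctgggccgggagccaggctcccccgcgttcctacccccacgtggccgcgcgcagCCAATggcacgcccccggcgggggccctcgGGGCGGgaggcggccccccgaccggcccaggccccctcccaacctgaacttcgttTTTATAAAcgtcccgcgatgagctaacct
RefSeq windows were found for 20 of the 39 genes. Of HOXB only the silent *HOXB1* was found, so no expressed HOXB gene is included. Of HOXD all members but *HOXD9* were found, and *HOXA3* had more windows than any other gene. The shares and the median below describe this selection and not all HOX genes. Some genes have more than 1 start site, and *HOXC4* and *HOXC5* share 1 window, so there were 27 windows by gene and 26 distinct ones, and shared windows were counted once in all genes too. The CCAAT box was in 17 of the 26, against 32.0% of 34943 windows of all genes. The GC box was in 13 of 26, against 42.6%. The TATA box was in 5 of 26, against 10.8%. TGATNNAT, a core bound by HOX and PBX proteins together, was searched on both strands, may overlap the other motifs, and was in 3 of 26 windows, against 6.49%. The median number of CpG dinucleotides was 19.5 in HOX windows and 11 in all windows. Among the 6 windows shown, the expressed *HOXA13*, *HOXA11* and *HOXA2* had 40, 11 and 8 CpG, and the silent *HOXA4*, *HOXD11* and *HOXD13* had 26, 23 and 21, so this count did not sort the expressed from the silent genes. A match describes letters only and shows no binding.

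In control cells the HOXB cluster held the largest summed level, followed by HOXA and HOXC, and HOXD was almost silent. The sums were 65.4 ± 4.24 CPM per kilobase for HOXB, 54.3 ± 10.1 for HOXA and 20.9 ± 1.24 for HOXC (mean ± SD, n = 3 libraries, as for all means below). Control replicates 1, 2 and 3 gave 68.6, 67.1 and 60.6 for HOXB, 59.3, 60.8 and 42.7 for HOXA and 22.3, 20.6 and 19.8 for HOXC. HOXB was above HOXA, and HOXA above HOXC, in each control library. Of the 9 HOXD genes 8 had 0 counts in all 6 libraries, and *HOXD12* had 1 count in control replicate 1 and 1 in ABS replicate 3. *HOXB1*, a hindbrain gene, also had 0 counts in every library. Thus 30 members had at least 1 count and 9 had none.

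**Figure D1:**
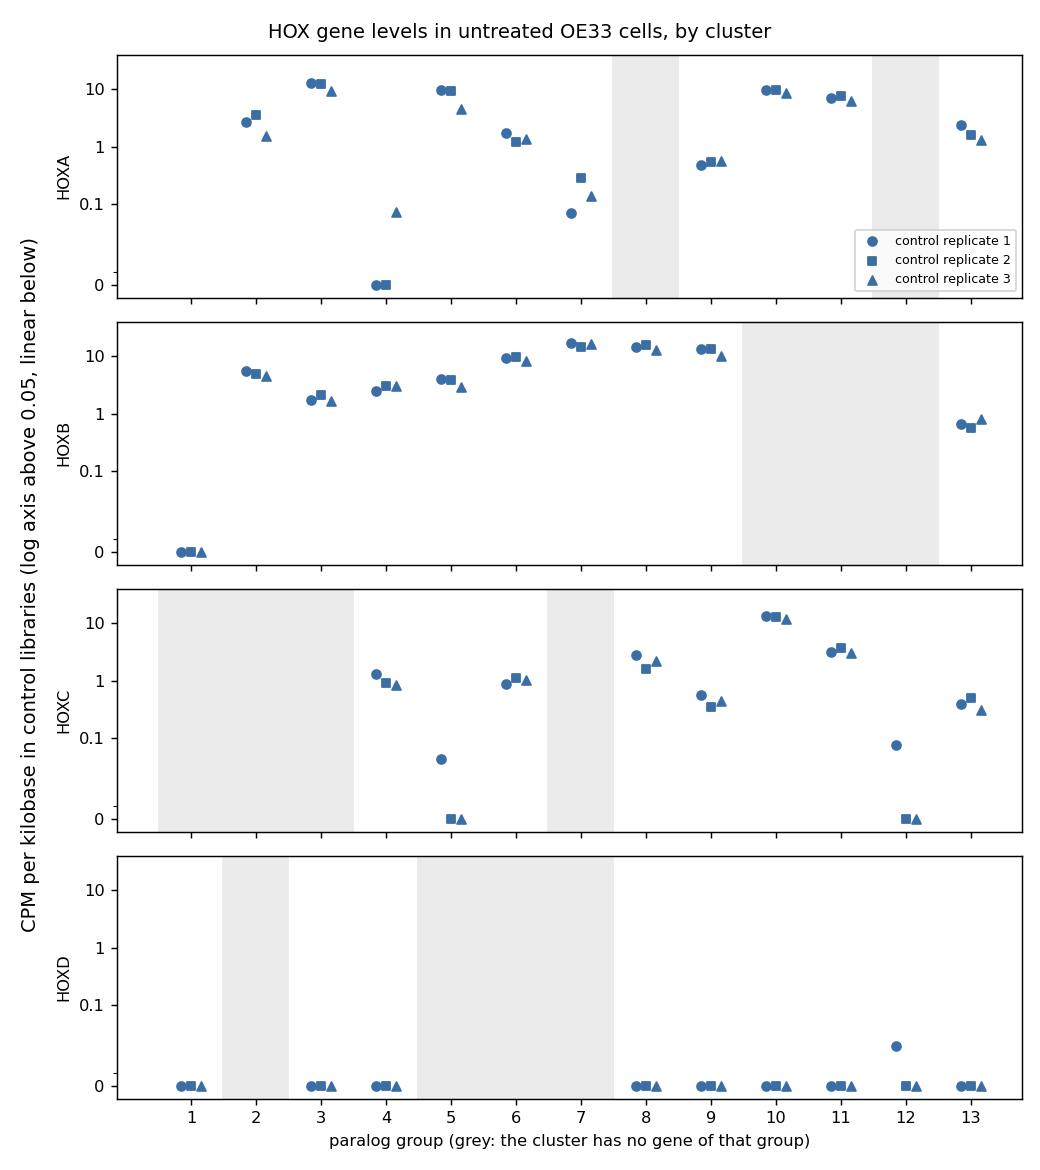
Level of 38 HOX genes in the 3 control libraries, as CPM per kilobase on an axis that is logarithmic above 0.05 and linear below, with 1 panel per cluster and the paralog groups along the horizontal axis (grey where a cluster has no gene of that group). HOXB genes from group 2 to group 9 lie above 1, low genes such as *HOXA4* and *HOXC5* sit between active ones, and the HOXD points lie at 0 except 1 library of *HOXD12*.

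The genes of highest control level per kilobase were the trunk genes *HOXB7* (15.9 ± 1.36 CPM per kilobase) and *HOXB8* (14.3 ± 1.3). The next levels included those of the lumbar gene *HOXC10* (12.6 ± 0.558), *HOXB9* (12.3 ± 1.83) and *HOXA3* (11.3 ± 1.84), followed by *HOXA10* (9.14 ± 0.593), *HOXB6* (8.997 ± 0.816), *HOXA5* (7.76 ± 2.85) and *HOXA11* (6.92 ± 0.621). From *HOXB7* to *HOXA11*, the control values of each gene overlapped those of the next in the order. Of the 22 neighbour pairs among the 23 genes with a mean of at least 1 CPM over the 6 libraries, 17 overlapped and 5 did not. Separated neighbours were *HOXA11* and *HOXB2* (5.003 ± 0.518), *HOXB2* and *HOXB5* (3.57 ± 0.587), *HOXC11* (3.27 ± 0.321) and *HOXB4* (2.85 ± 0.301), *HOXC6* (0.9997 ± 0.109) and *HOXB13* (0.675 ± 0.125), and *HOXB13* and *HOXA9* (0.526 ± 0.04335). The genes between *HOXB4* and *HOXC6* were, in order, *HOXA2* (2.55 ± 0.9685), *HOXC8* (2.19 ± 0.635), *HOXB3* (1.83 ± 0.231), *HOXA13* (1.75 ± 0.523), *HOXA6* (1.44 ± 0.284) and *HOXC4* (1.01 ± 0.2395).

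Within the active clusters, single genes were low beside expressed neighbours. *HOXA4* had 3 counts in control replicate 3 and 0 in the other libraries, although *HOXA3* and *HOXA5* on either side of it were well expressed. *HOXA7* had 4, 15 and 8 counts in control replicates 1, 2 and 3, followed by 2, 2 and 3 in the ABS replicates, and did not pass the low-count filter. *HOXC5* had 5 counts over all 6 libraries, and *HOXC12* had 6, all in control replicate 1. Exons shared with other annotated genes make up 47.3% of *HOXA4*, 62.5% of *HOXA7*, 59.9% of *HOXC5* and 0% of *HOXC12*. A second entry named *HOXC5*, a processed transcript and not a member, had 0 counts. How reads in shared exons were counted, and whether by strand, is not given in the sources used here, so the levels of members with shared exons are uncertain.

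By paralog group, summed over the clusters, group 10 had the highest control level, at 21.7 ± 1.12 CPM per kilobase, from *HOXC10* and *HOXA10*. Groups 8 and 7 followed at 16.5 ± 1.29 and 16.02 ± 1.25. The most posterior group, 13, had 2.82 ± 0.487, and group 12 was lowest at 0.03602 ± 0.0624. Genes of anterior, trunk and posterior number were thus expressed in the same cultures.

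After ABS most expressed HOX genes had lower values, but none passed the test over all genes. The low-count filter left 25 of the 39 members, of which 22 had a negative log2 fold change (ABS against control) and 3 a positive one. A log2 fold change below 0 was found in 51% of all tested genes. The edgeR quasi-likelihood test, adjusted by Benjamini-Hochberg over 13768 genes, called 0 of the 25 at 0.05, against 0.436% of tested genes in either direction and 0.0654% lower. At an unadjusted p under 0.05, 13 members were lower and 0 higher, against 9.75% of tested genes in either direction and 4.14% lower. ABS values lay wholly below control values in 10 members and wholly above in 0, against 6.95% of tested genes wholly below and 14.5% apart in either direction. The median log2 fold change was -0.45 over the 25 members and -0.0037 over all tested genes. DESeq2 called 4 members, all lower (*HOXA3*, *HOXA11* and *HOXB8* among them), against 1.81% of genes in either direction and 0.529% lower. limma-voom called 0, against 0.45% of genes in either direction and 0.0726% lower. *HOXC13* passed the filter only through the control group, where it was higher, so the filter favoured a lower value after ABS for this gene. Without it 24 members remained, of which 21 were negative, 12 had an unadjusted p under 0.05, 9 lay wholly below control and 0 passed the edgeR test, with a median of -0.44. The members were measured in the same libraries and are not independent observations.

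**Figure D2:**
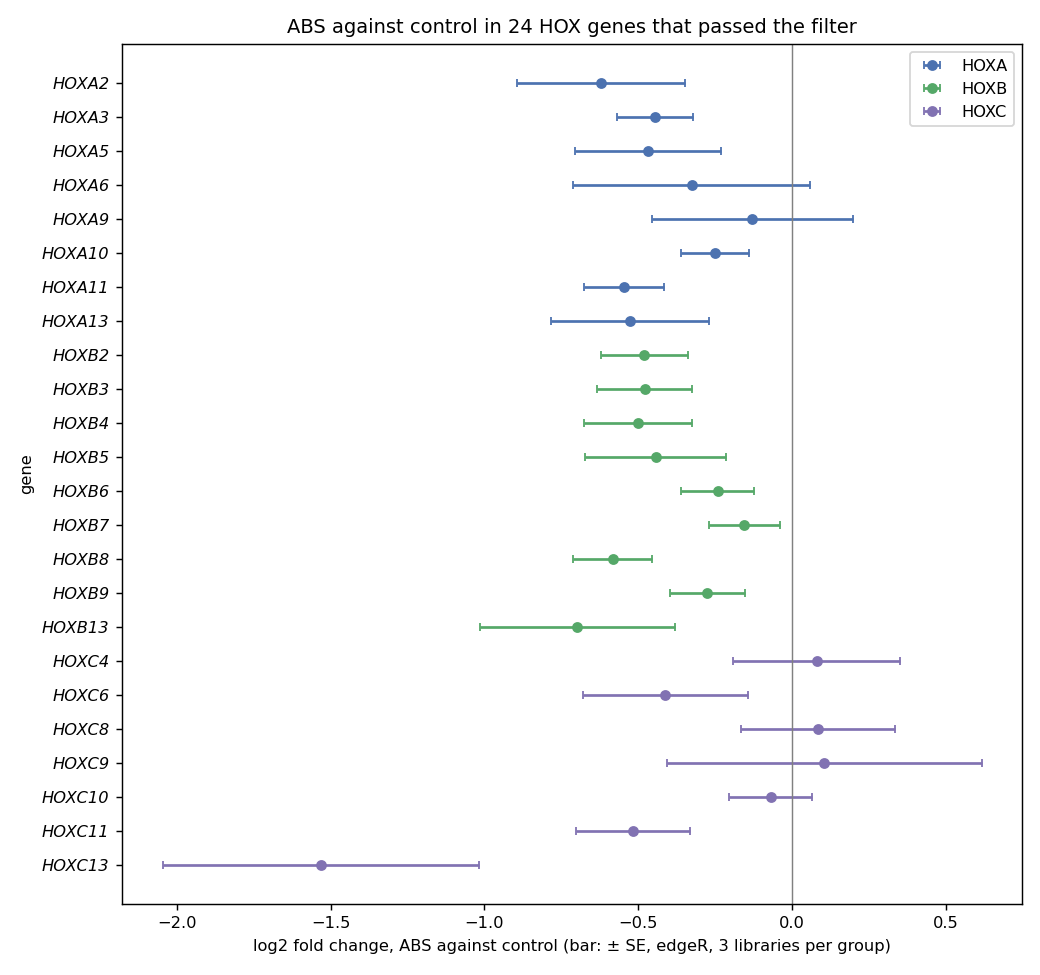
Log2 fold change of ABS against control for 24 HOX genes that passed the filter (points), with the edgeR standard error as bars, 3 libraries per group and colours for the clusters. The HOXA and HOXB genes shown lie below 0, and the 3 genes above 0, *HOXC4*, *HOXC8* and *HOXC9*, belong to HOXC.

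In HOXA all 9 tested genes had negative log2 fold changes, with a median of -0.47. *HOXA3* (ENSG00000105997, chromosome 7, 27106184 to 27152581 on GRCh38, minus strand) patterns the pharyngeal arches and the thymus. It stood at 54.2, 52.3 and 39.6 CPM in control replicates 1, 2 and 3 and at 38.4, 36.9 and 32.025 CPM in the ABS replicates in the same order. The groups did not overlap, and control replicate 3 was the nearest to ABS (log2 fold change -0.45 ± 0.12, ± SE as for all log2 fold changes below, edgeR adjusted p 0.157). *HOXA11* (ENSG00000005073, chromosome 7, 27181510 to 27185223 on GRCh38, minus strand) acts in the limb and the uterus. It had 16.1, 17.3 and 14.5 CPM in control and 11.4, 9.84 and 11.5 after ABS, without overlap (-0.55 ± 0.13, edgeR adjusted p 0.103).

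The HOXA genes that follow overlapped between the groups. *HOXA2*, a gene of the hindbrain and second pharyngeal arch, had 6.46, 8.56 and 3.81 CPM in control and 3.39, 3.98 and 4.83 after ABS (-0.62 ± 0.27). *HOXA5*, needed for lung development, had 16.5, 15.6 and 7.65 CPM and 9.8025, 10.5 and 8.44 (-0.47 ± 0.24). In both, control replicates 1 and 2 lay above all ABS libraries and control replicate 3 did not. *HOXA6*, a trunk gene, had 2.25, 1.55 and 1.74 CPM in control and 0.807, 1.49 and 2.12 after ABS (-0.33 ± 0.39). *HOXA9*, known from leukemia, had 1.45, 1.64 and 1.696 CPM and 1.37, 1.27 and 1.73 (-0.13 ± 0.33). *HOXA10*, a gene of the uterus, had 35.2, 35.1 and 31.4 CPM and 25.98, 26.5 and 32.9 (-0.25 ± 0.11). In *HOXA9* and *HOXA10* the ABS libraries of replicates 1 and 2 lay below all control libraries and that of replicate 3 did not. *HOXA13*, which patterns the distal limb and the hindgut, had 11.9, 8.15 and 6.701 CPM in control and 5.77, 4.33 and 8.399 after ABS (-0.53 ± 0.26).

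In HOXB all 9 tested genes were negative as well, from -0.70 to -0.15, with a median of -0.48. *HOXB8* (ENSG00000120068, chromosome 17, 48611377 to 48614939 on GRCh38, minus strand), a trunk gene also known from myeloid leukemia, shares no exon with another gene. It stood at 30.01, 31.5 and 26.35 CPM in control and 18.6, 16.9 and 23.2 after ABS. Every ABS library lay below every control library, with ABS replicate 3 the closest. The log2 fold change was -0.58 ± 0.13, and edgeR's adjusted p of 0.0825 was the smallest of the 25 members. *HOXB2*, a hindbrain gene, had 13.01, 11.4 and 10.6 CPM in control and 8.915, 7.78 and 8.44 after ABS (-0.48 ± 0.14, edgeR adjusted p 0.199). *HOXB3*, of the hindbrain and pharyngeal arches, had 13.1, 15.6 and 12.2 CPM and 9.399, 8.39 and 11.5 (-0.48 ± 0.15, edgeR adjusted p 0.262). *HOXB4*, known for expanding blood stem cells, had 9.39, 11.3 and 11.4 CPM and 7.34, 6.03 and 9.26 (-0.50 ± 0.18, edgeR adjusted p 0.311). The groups did not overlap in these 3 genes, nor in *HOXB13*. That gene of the prostate and hindgut was low, at 2.25, 1.96 and 2.81 CPM in control and 1.45, 1.75 and 1.14 after ABS (-0.70 ± 0.32, edgeR adjusted p 0.506).

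The remaining HOXB genes overlapped between the groups. *HOXB7*, first in the control order, had 25.7, 21.8 and 25.15 CPM in control and 19.6, 21.4 and 24.3 after ABS (-0.155 ± 0.115). *HOXB6*, a trunk gene, had 23.9, 25.3 and 21.1 CPM and 22.3, 19.4 and 17.8 (-0.24 ± 0.12). *HOXB9*, a thoracic gene, had 34.8, 34.4 and 26.4 CPM and 24.85, 28.7 and 25.5 (-0.27 ± 0.12). *HOXB5*, which acts in the enteric nervous system, had 8.12, 7.83 and 5.915 CPM and 5.93, 3.58 and 6.515 (-0.44 ± 0.23). *HOXB8* had a larger negative log2 fold change than *HOXB7* and *HOXB9*, its neighbours in number, but the difference between genes was not tested.

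HOXC was mixed, with 4 of 7 tested genes negative and a median of -0.07, or 3 of 6 and 0.0059 without *HOXC13*. *HOXC10*, which acts in the lumbar region and the hindlimb, had 30.6, 29.4 and 27.96 CPM in control and 24.97, 23.8 and 34.9 after ABS (-0.07 ± 0.14). ABS replicate 3 lay above all control libraries, and the other 2 ABS libraries lay below them. *HOXC11* (ENSG00000123388, chromosome 12, 53973126 to 53977643 on GRCh38, plus strand), also of the hindlimb, had 10.1, 11.9 and 10.05 CPM in control and 6.33, 6.34 and 9.65 after ABS, without overlap (-0.52 ± 0.18, edgeR adjusted p 0.324). *HOXC13*, a regulator of hair keratins, had 22, 26 and 18 counts in control and 6, 5 and 13 after ABS. Its log2 fold change was -1.53 ± 0.51 with an edgeR adjusted p of 0.285, the most negative of the 25. It passed the filter through the control group, since 3 control libraries but 1 ABS library reached the filter's 0.423 CPM.

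The other HOXC genes overlapped between the groups. *HOXC4* had 3.49, 2.46 and 2.275 CPM in control and 2.904, 2.4045 and 3.38 after ABS (0.08 ± 0.27). *HOXC6* had 3.15, 3.91 and 3.56 CPM and 2.78, 1.84 and 3.34 (-0.41 ± 0.27). *HOXC8*, which acts in forelimb motor neurons, had 5.36, 2.96 and 4.095 CPM and 3.63, 4.28 and 5.26 (0.085 ± 0.25). *HOXC9* had 9 to 33 counts per library (0.11 ± 0.51). The positive values of *HOXC4*, *HOXC8* and *HOXC9* were smaller than their standard errors, and each turned negative in some of the alternative settings.

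**Figure D3:**
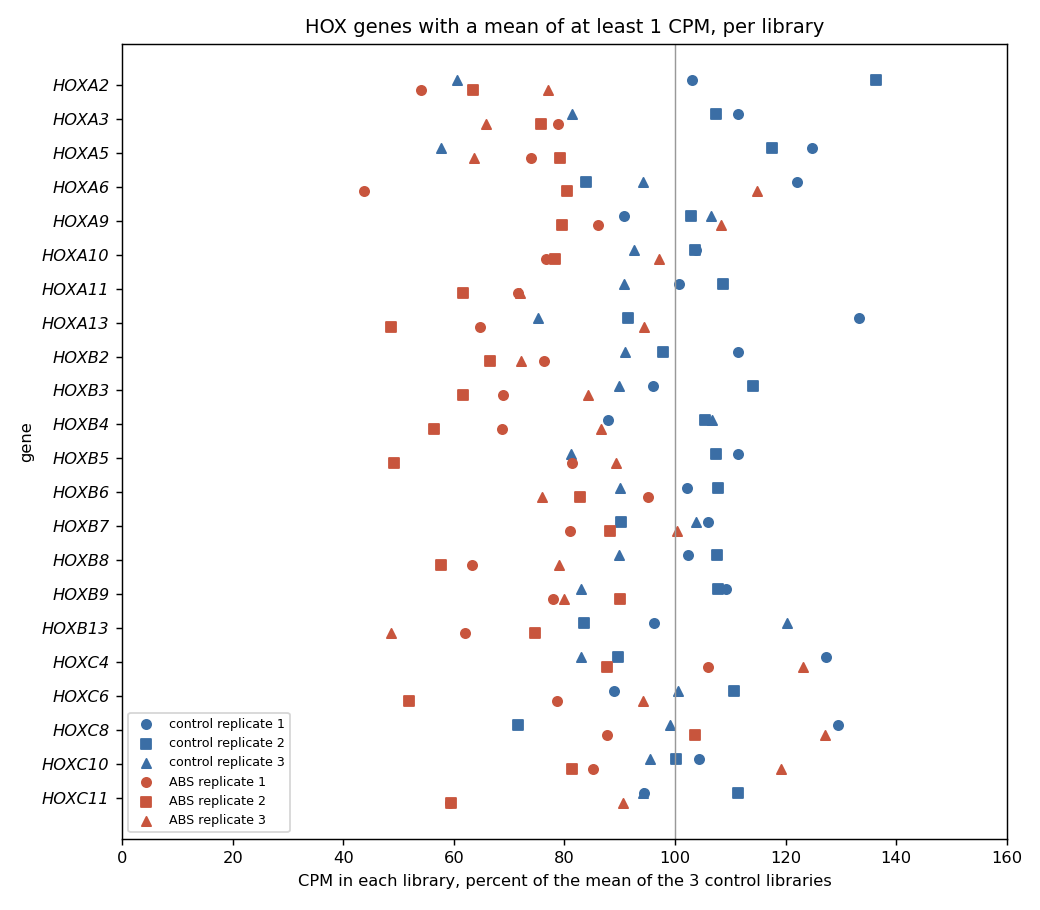
CPM of 22 HOX genes with a mean of at least 1 CPM in each of the 6 libraries, as a percentage of the mean of the 3 control libraries (blue control, red ABS, marker shape for the replicate number). ABS points of replicates 1 and 2 lie mostly left of 100, and that of replicate 3 often lies to their right, as in *HOXC10*.

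The size of the difference depended on the replicates compared. Within replicates 1 and 2, all 25 members had negative log2 fold changes, with a median of -0.61 against -0.0076 over all tested genes. In that edgeR fit 15 members fell past the threshold, against 13.2% of genes in either direction and 5.33% lower. They included *HOXA2*, *HOXA3*, *HOXA5*, *HOXA10*, *HOXA11*, *HOXA13*, *HOXB2*, *HOXB3*, *HOXB4*, *HOXB5*, *HOXB8*, *HOXB9*, *HOXC11* and *HOXC13*. Without *HOXC13*, 14 members passed and the median was -0.58. Within replicate 3, with 1 library per group and so no test, 14 of 25 were negative. The median there was -0.05, against -0.00081 over all tested genes. The log2 difference of *HOXB8* was -0.79 within replicates 1 and 2 and -0.19 within replicate 3, and that of *HOXA11* was -0.65 within replicates 1 and 2 and -0.33 within replicate 3. *HOXA2* (-1.03 within replicates 1 and 2 and 0.34 within replicate 3), *HOXA13* (-0.98 within replicates 1 and 2 and 0.33 within replicate 3) and *HOXC10* (-0.30 within replicates 1 and 2 and 0.32 within replicate 3) had opposite signs. *HOXB13* was negative in both and more so within replicate 3, with -0.40 within replicates 1 and 2 and -1.31 within replicate 3. The latter rests on 68 counts in control and 29 after ABS. Control replicate 3 held the lowest control value in 17 of the 25 genes, and ABS replicate 3 held the highest ABS value in 18. These counts were not made over all tested genes. How far the separation of the replicate 3 libraries enters these differences was not tested.

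**Figure D4:**
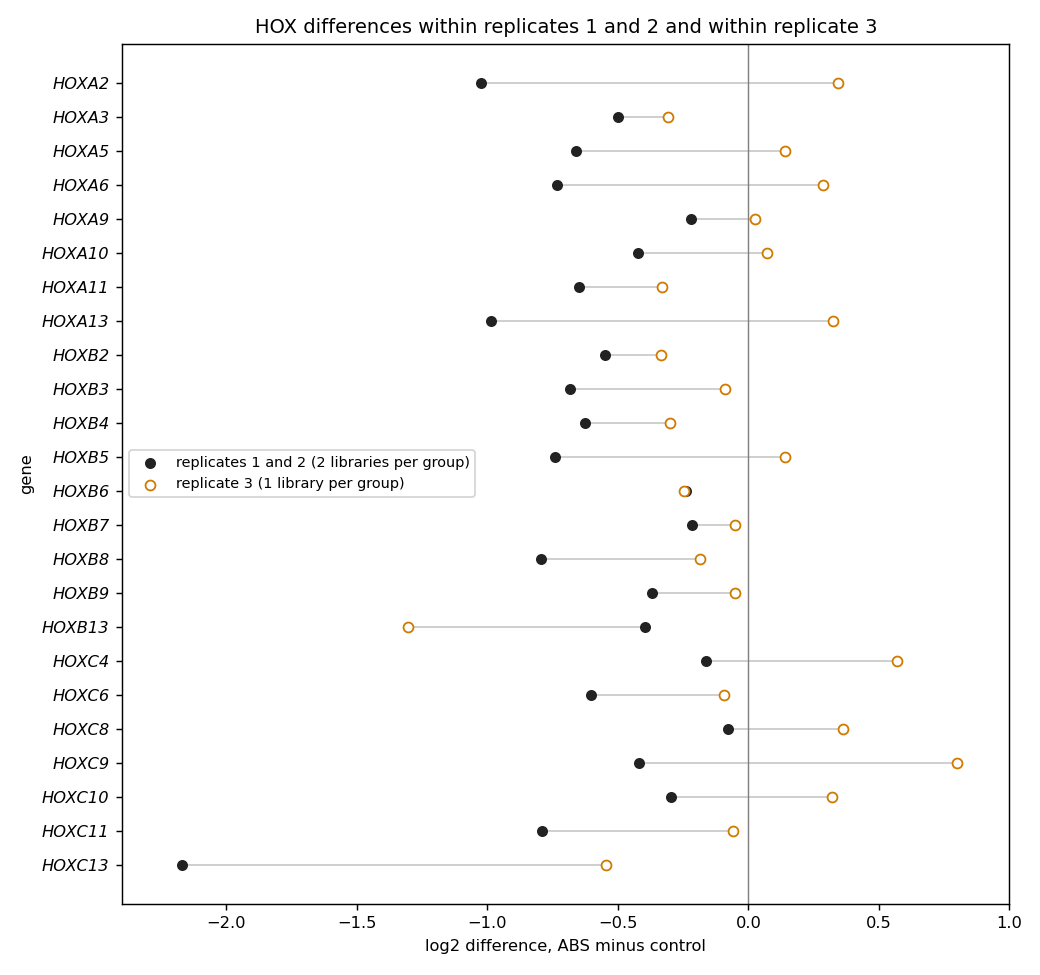
Log2 difference, ABS minus control, of 24 HOX genes that passed the filter, within replicates 1 and 2 (filled points, 2 libraries per group) and within replicate 3 (open points, 1 library per group). All filled points lie below 0, and 11 of the 24 open points lie above 0.

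Calls among the members changed with the libraries and settings. Leaving out control replicate 3 gave 5 called members (*HOXA3*, *HOXA5*, *HOXA11* and *HOXB8* among them), against 3.1% of genes in either direction and 0.829% lower. Leaving out ABS replicate 3 gave 2 (*HOXB8* and *HOXC11*), against 1.94% of genes in either direction and 0.611% lower. Leaving out any other library gave 0 members, where the background was 0.12% of genes in either direction and 0.0141% lower without control replicate 1, 0.0845% of genes in either direction and 0.00704% lower without control replicate 2, 0.0919% of genes in either direction and 0.00707% lower without ABS replicate 1 and 0.127% of genes in either direction and 0.0141% lower without ABS replicate 2. A term for the replicate 3 libraries gave 4 members, against 3.38% of genes in either direction and 1.14% lower, and the fit without a low-count filter gave 4, against 1.64% of genes in either direction and 0.473% lower. The fit with replicate number as a term gave 4, against 2.54% of genes in either direction and 0.77% lower. Scaling by library size alone (0.254% of genes in either direction and 0.0291% lower), testing genes with a mean of at least 1 CPM (0.465% of genes in either direction and 0.0734% lower) and robust estimation (0.508% of genes in either direction and 0.0799% lower) each gave 0. *HOXA3*, *HOXA11* and *HOXB8* were in every set of 4.

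Summed by cluster, ABS replicates 1, 2 and 3 held 39.2, 38.5 and 39.5 CPM per kilobase for HOXA, 50.4, 49.1 and 55.025 for HOXB and 16.7, 16.4 and 23.9 for HOXC. The HOXA and HOXB sums lay below every control library, with means at 71.96% and 78.8% of control. The HOXC sums overlapped, with ABS replicate 3 above all control libraries. The HOXA sum of control replicate 3 lay nearer to the ABS libraries than to the other 2 control libraries. All members together stood at 141 ± 15.2 CPM per kilobase in control and 109.6 ± 7.703 after ABS. In bulk RNA, fewer cells expressing a gene and less RNA per cell cannot be told apart.

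**Figure D5:**
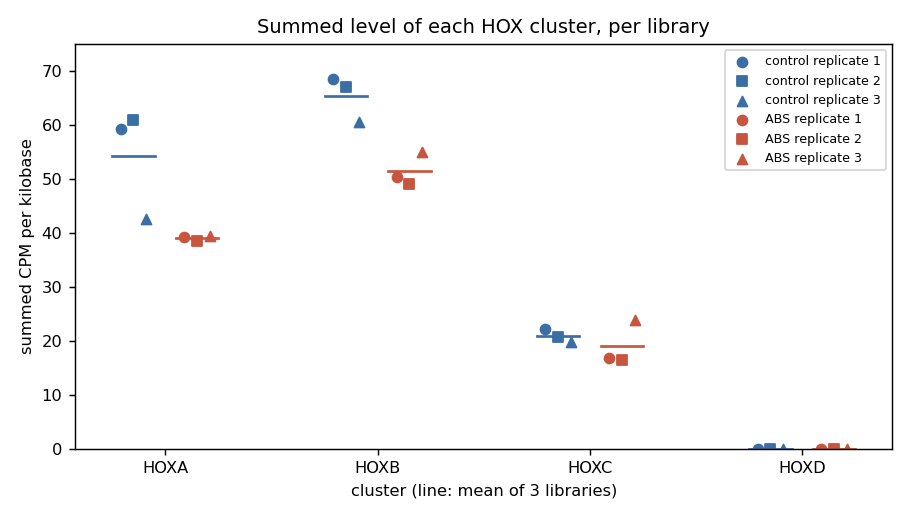
Summed CPM per kilobase of the members of each HOX cluster in the 3 control (blue) and 3 ABS (red) libraries, with a line at each mean. ABS libraries lie below control libraries in HOXA and HOXB, overlap them in HOXC, and HOXD lies at the base line.

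Of the 14 members whose exons overlap no other gene, 8 passed the filter. Of these 7 (*HOXA2*, *HOXA5*, *HOXB7*, *HOXB8*, *HOXB9*, *HOXB13* and *HOXC11*) were negative and *HOXC8* was positive, with a median of -0.49. *HOXA11* shares 31.1% of its exon with the antisense gene *HOXA11-AS*, and reads of both strands may be mixed there. Of the 18 HOX cluster non-coding RNAs found, a set of 11 was tested, of which 0 passed with edgeR, DESeq2 or limma-voom and 0 had an unadjusted p under 0.05. Their median log2 fold change was -0.20, with 8 negative and 3 positive. *HOXA-AS3*, antisense to *HOXA6* and *HOXA7*, stood at 3.16 ± 0.572 CPM in control and 2.12 ± 0.457 after ABS (-0.57 ± 0.28). *HOXC-AS3* stood at 2.18 ± 0.534 CPM in control and 1.37 ± 0.169 after ABS (-0.67 ± 0.32) and *HOXA-AS2* at 7.46 ± 1.96 CPM in control and 6.31 ± 1.05 after ABS (-0.24 ± 0.22). *HOTAIRM1*, an antisense RNA of the HOXA cluster, stood at 8.73 ± 0.864 CPM in control and 9.36 ± 0.499 after ABS (0.10 ± 0.14). The HOXD RNAs *HAGLR*, *HAGLROS* and *HOXD-AS2* had 0 counts in every library, as did 8 of the 9 HOXD genes.

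Genes beside the clusters were tested for the same contrast. Of 18 flanking genes 15 were tested, 0 passed with edgeR, DESeq2 or limma-voom, 0 had an unadjusted p under 0.05, and the median log2 fold change was -0.03. *CBX5*, a heterochromatin gene beside HOXC, stood at 129.5 ± 7.48 CPM in control and 115 ± 9.33 after ABS (-0.17 ± 0.08). *MTX2*, a mitochondrial import gene beside the silent HOXD cluster, stood at 40.3 ± 1.93 CPM in control and 36.1 ± 2.698 after ABS (-0.16 ± 0.09). *CALCOCO2*, an autophagy receptor gene near HOXB, stood at 33.1 ± 2.16 CPM in control and 36.5 ± 1.08 after ABS, and the splicing factor gene *HNRNPA1*, near HOXC, at 1319 ± 133 CPM in control and 1355 ± 147 after ABS. Of 8 ParaHox and EVX genes, the closest relatives of the HOX clusters, 5 had 0 counts in every library and 2 were tested. With edgeR, DESeq2 or limma-voom 0 passed the threshold. An unadjusted p under 0.05 was found in 1, against 9.75% of all tested genes in either direction. That was *CDX2*, an intestinal factor that activates HOX genes in the embryo, at 26.1, 22.98 and 13.9 CPM in control and 29.65, 27.1 and 29.003 after ABS (0.45 ± 0.18, edgeR adjusted p 0.414). Without a low-count filter it passed (edgeR adjusted p 0.0183). *PDX1*, a gene of the foregut and pancreas, stood at 6.83 ± 2.51 CPM in control and 5.85 ± 0.373 after ABS.

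Cofactors that bind DNA with HOX proteins were expressed. Of 11 listed 9 were tested and *MEIS3* and *PKNOX2* had 0 counts. With edgeR, DESeq2 and limma-voom 0 passed, and the median log2 fold change was -0.08. An unadjusted p under 0.05 was found in 1, against 9.75% of all tested genes in either direction. That was *MEIS2*, at 17.9 ± 0.936 CPM in control and 21.3 ± 2.17 after ABS (0.25 ± 0.11). *PBX2*, a PBX partner, stood at 51.8 ± 2.21 CPM in control and 45.9 ± 4.02 after ABS (-0.17 ± 0.09) and *PKNOX1*, a MEIS relative, at 15.4 ± 1.11 CPM in control and 18.3 ± 2.39 after ABS (0.25 ± 0.13). *HMGB1*, which bends DNA, stood at 669.5 ± 34.1 CPM in control and 652 ± 34.7 after ABS. Of 12 HOX inhibitors and co-regulators 0 passed with edgeR, DESeq2 or limma-voom, with a median of -0.01. At an unadjusted p under 0.05 there were 2, against 9.75% of all tested genes in either direction. These were *TGIF2*, a homeodomain repressor, at 50.4 ± 2.43 CPM in control and 41.4 ± 0.902 after ABS (-0.28 ± 0.08, edgeR adjusted p 0.192), and *BTG1*, at 70.8 ± 2.05 CPM in control and 81.1 ± 8.14 after ABS (0.20 ± 0.09). The acetyltransferase gene *CREBBP* stood at 142 ± 20.1 CPM in control and 159.6 ± 17.3 after ABS and the deacetylase gene *HDAC2* at 213 ± 9.41 CPM in control and 216 ± 9.41 after ABS.

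Of 24 Polycomb genes, which encode silencers of HOX clusters, 1 rose and 1 fell by the edgeR test, against 0.436% of tested genes in either direction. Their median log2 fold change was -0.05. At an unadjusted p under 0.05 1 was higher and 4 were lower, against 9.75% of tested genes in either direction and 4.14% lower. DESeq2 called 3 (*JARID2*, *EPOP* and *PCGF2*), against 1.81% of genes in either direction, and limma-voom 2, against 0.45%. *JARID2* helps to recruit Polycomb repressive complex 2. It rose from 45.6 ± 5.32 to 73.03 ± 3.94 CPM (0.68 ± 0.09, edgeR adjusted p 0.00801). That p was 0.0713 when control replicate 1 was left out, 0.0989 without control replicate 2 and 0.05435 without ABS replicate 1, which ends the call. *EPOP*, a partner of the same complex, fell from 92.7 ± 3.54 to 63.7 ± 8.17 CPM (-0.54 ± 0.09, edgeR adjusted p 0.0293). Its call was lost when control replicate 1 (0.113) or 2 (0.236) or ABS replicate 1 (0.247) or 2 (0.175) was removed, and when only library size was used for scaling (0.0737), all edgeR adjusted p. *PCGF2*, a subunit of repressive complex 1, stood at 208 ± 8.82 CPM in control and 168 ± 19.9 after ABS (-0.31 ± 0.09, edgeR adjusted p 0.168). It passed with DESeq2 (adjusted p 0.0479), and in edgeR fits with a term for the replicate 3 libraries (0.0203), with replicate number as a term (0.0391), without ABS replicate 3 (0.0146) and without a low-count filter (0.0187). *CBX6*, of the same complex, stood at 230.15 ± 11.02 CPM in control and 222 ± 12.5 after ABS. Of 12 trithorax and MLL complex genes, which keep HOX genes active, 0 passed with edgeR, DESeq2 or limma-voom, 0 had an unadjusted p under 0.05, and the median was -0.01. *KMT2A*, the MLL gene, stood at 38.5 ± 6.21 CPM in control and 29.6 ± 9.17 after ABS (-0.38 ± 0.18, edgeR adjusted p 0.544). It fell past the threshold in edgeR fits with a term for the replicate 3 libraries (adjusted p 0.02099), with replicate number as a term (0.0349), without ABS replicate 3 (0.0248) and without a low-count filter (0.0458). Its relative *KMT2B* stood at 74.2 ± 5.298 CPM in control and 62.8 ± 10.8 after ABS (-0.24 ± 0.11). The demethylase gene *KDM6B* stood at 36.3 ± 4.701 CPM in control and 40.04 ± 5.22 after ABS and *MEN1*, the menin gene, at 124 ± 6.26 CPM in control and 116 ± 12.3 after ABS.

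Of 15 genes of retinoic acid metabolism and signalling 9 were tested, and the median log2 fold change was -0.04. With edgeR and limma-voom 0 passed, and with DESeq2 1, against 1.81% of genes in either direction. At an unadjusted p under 0.05 there were 2, against 9.75% of all tested genes in either direction. *ALDH1A3*, which makes retinoic acid and was the gene called by DESeq2, stood at 838 ± 14.1 CPM in control and 1022.5 ± 45.3 after ABS (0.29 ± 0.07, edgeR adjusted p 0.09301). It also passed in edgeR fits with a term for the replicate 3 libraries (adjusted p 0.00325), with replicate number as a term (0.0113), without a low-count filter (0.0102), and without control replicate 3 (0.02598) or ABS replicate 3 (0.0442). *RARA*, a retinoic acid receptor gene, stood at 50.3 ± 3.97 CPM in control and 41.6 ± 4.698 after ABS (-0.27 ± 0.10, edgeR adjusted p 0.369). Its partner *RXRA* stood at 105 ± 7.21 CPM in control and 115 ± 4.83 after ABS and the retinol dehydrogenase gene *RDH10* at 33.97 ± 3.79 CPM in control and 37.8 ± 2.62 after ABS.

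Within replicates 1 and 2, where the edgeR fit called 13.2% of genes in either direction and 5.33% lower, genes of these lists passed as well. Of the Polycomb genes 1 rose (*JARID2*) and 3 fell, *EPOP* and *PCGF2* among them. Of the trithorax and MLL complex genes *KMT2A*, *KMT2B* and *MEN1* fell and *KDM6B* rose. *ALDH1A3* rose and *RARA* fell, *BTG1* and *CREBBP* rose, and *PBX2* fell. Of the flanking genes 2 fell, *CBX5* among them. No HOX cluster non-coding RNA and no ParaHox or EVX gene passed in that fit. Of the 8 epithelial markers 5 passed in it, 2 of them lower. With all 6 libraries edgeR and limma-voom called 0 of the 8 and DESeq2 1, against 1.81% of genes in either direction. That was *CLDN4*, at 901 ± 147 CPM in control and 1314 ± 220 after ABS (0.54 ± 0.13, edgeR adjusted p 0.103, DESeq2 adjusted p 0.00136).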

How the data were processed

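RNA-seq of polyadenylated RNA from 3 control and 3 ABS libraries of OE33 cells was analysed. The authors deposited raw counts per gene. HISAT2 2.0.5, featureCounts 1.5.0-p3 and GRCh38 are named in the submitters' processing notes. Annotation release, strand and multi-mapping settings are not given in the sources used here. GENCODE release 29 held each of the 58735 gene identifiers and gave the same coordinates for all 39 HOX genes, and exon overlaps were computed from it. Counts were filtered with filterByExpr (minimum count 10, minimum total 15), scaled by TMM and tested with the quasi-likelihood F-test of edgeR 4.0.16 (R 4.3.3) with group as the only term, Benjamini-Hochberg adjustment over all tested genes and a threshold of 0.05. The SE is the size of the log2 fold change divided by the root of F. DESeq2 1.42.0, limma 3.58.1, other filters and scalings, other terms and left-out libraries were alternatives. The edgeR script was tested on simulated data. HOX members, gene lists and tests were chosen with earlier results of these data known. HOX genes with a mean of at least 1 CPM are given in every library, the others by counts; 1 member enters counts, sums and medians but is not reported here. From each other list up to 4 genes are named: those past the threshold, then those of smallest p, with the gene of highest CPM. RNAs or markers listed at 0 and *COL1A1*, *CD14*, *LYZ*, *KRT8*, *KRT19* and *CLDN4* are named besides, after their values were seen. Replicate numbers were not treated as pairs. With replicates of 1 line, p-values measure the spread between these cultures.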

Additional observations from a re-analysis of the deposited data

How the results depend on the processing

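The edgeR test called 0 HOX genes. It called 4 without a filter, 4 with the replicate block, 4 with a replicate 3 term and 15 within replicates 1 and 2, DESeq2 called 4, and the number ran from 0 to 5 with 1 library left out. Over all genes 60 were called, against 409 without a filter, 35 when scaled by library size, 233 with DESeq2, 350 with the replicate block, 465 with the replicate 3 term, 1813 within replicates 1 and 2, and 12 to 438 with 1 library left out. Deviations from the group means correlated across genes at 0.0425, 0.0333 and 0.167 between same-numbered libraries of replicates 1, 2 and 3. The value for replicate 3 was the highest between any control and any ABS library. Control replicate 1 correlated better with ABS replicate 2 (0.0934) than with ABS replicate 1, so numbers 1 and 2 gave no clear pairing. The replicate 3 libraries resembled each other across the groups (chi-square per degree of freedom 6.74, against 13.6 to 17.7 with the other libraries of their own groups). The number of HOX genes below 0 was 21 to 26, of 23 to 30 tested, in 15 alternatives of tool, filter, scaling, model term and left-out library. Each of these fits held libraries of replicates 1 and 2, and within replicate 3 alone 14 of 25 were below 0. Without *HOXC13*, an alternative chosen after seeing the data, the number below 0 was 21 and the edgeR test called 0. Signs reversed in *HOXC4*, *HOXC8*, *HOXC9* and *HOXC10*. Within replicates 1 and 2 *HOXC4* was at -0.1632, *HOXC8* at -0.0765 and *HOXC9* at -0.4186, and with limma-voom *HOXC9* was at -0.0493. With 1 library left out, *HOXC4* ranged from -0.0421 to 0.293, *HOXC8* from -0.1045 to 0.3144, *HOXC9* from -0.4015 to 0.4584 and *HOXC10* from -0.2611 to 0.0313. Restricted to members without shared exons, and so to fewer genes, the sums for HOXA, HOXB and HOXC were 10.3, 43.2 and 5.48 CPM per kilobase in control and 7.26, 34.4 and 4.60 after ABS. Where a value moved for another reason, the cause was not tested. Depth limits genes below about 0.423 CPM, the level of the filter.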
